A study of Homo sapiens with 6 samples.

Results

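Small heat shock proteins and BAG co-chaperones are 2 groups of proteins that handle unfolded clients before and during work by the HSP70 chaperones. The 10 genes described here are HSPB1, HSPB6, HSPB8, HSPB11 and CRYAB of the first group and BAG1, BAG2, BAG3, BAG4 and BAG5 of the second. They were taken by name from the 26613 genes with at least 1 count in any library, and the list was selected on measured values, the counts of mimic against mock libraries. Their differences between those groups are therefore a description, without a test. All 10 had counts. A filter on low counts, which reads all 6 libraries by group, passed 9 of them among 15607 genes, and CRYAB did not pass.

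The libraries came from 293T, a human embryonic kidney line that takes up nucleic acids easily. The mimic group of 3 libraries came from cells given a synthetic miR-941 duplex (a mimic of that microRNA) at 10 nM in a cationic lipid, and the mock group, also of 3, received a scrambled oligonucleotide, for which no concentration of its own is recorded. Cells of both groups were plated 24 h before transfection, RNA was depleted of ribosomal RNA, and single reads of 100 bases were sequenced. The labels call the replicates of each group independent, no time of harvest is given, and there was no untransfected group.

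Small heat shock proteins bind unfolding proteins without using ATP and hold them in a state from which other chaperones can refold them. BAG proteins carry a domain that binds the ATPase part of HSP70 and speeds the release of its nucleotide, and with it the client, while other parts of each BAG protein link HSP70 to the proteasome, to autophagy or to signalling receptors. BAG3 binds HSPB8 directly, and together with HSP70 and the ubiquitin ligase CHIP (gene STUB1) this complex passes clients to autophagy, a route best known in muscle and in stressed cells. Several of these genes are classic targets of HSF1, the transcription factor of the heat shock response.

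The microRNA that was added is shown first, because its bases 2 to 8, the seed in capitals, are what usually pair with a target's 3′ UTR. RefSeq (GRCh38.p14) lists 5 genes of this mature sequence on chromosome 20, the first mature copy at chr20:63919495-63919517 on the plus strand.
miR-941: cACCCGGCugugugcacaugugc

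The site complementary to the seed reads GCCGGGT in DNA letters, and it was absent from the 3′ UTR of every annotated coding transcript of all 10 genes (GENCODE 29, GRCh38). Over the tested genes with an annotated 3′ UTR, 634 of 13015 (4.87%) held this site in their longest 3′ UTR. The shorter CCGGGT, which pairs with bases 2 to 7, was in the 3′ UTR of 3 members, and in 13.4% of the tested genes. The windows below are the 3′ UTR matches of HSPB6 and BAG5, written 5′ to 3′ along the transcript, with the matched letters in capitals. The HSPB6 match is followed by an A and lies at chr19:35755151-35755157 on the minus strand, in exon 3 of 3 and at base 365 of a 953-base 3′ UTR. The BAG5 match lies at chr14:103558456-103558461 on the minus strand, in exon 2 of 2 and at base 1360 of 3277.
HSPB6: gagtcctctacaaagacatCCGGGTAct
BAG5: tgttataacagactcctcccCCGGGTca

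BAG1 held the full seed complement in its coding sequence, at chr9:33261106-33261112 on the minus strand, in exon 3 of 7, and 5 of its 7 coding transcripts contain it. The chosen transcripts of HSPB8 (3′ UTR of 890 bases) and BAG3 (537 bases) had neither the seed complement nor CCGGGT in any region. Their longest exact pairing to any stretch of miR-941, searched in the longest 3′ UTR only, is printed as well. These 2 genes were taken because they show the clearest falls among the members. In HSPB8 this pairing spans 6 bases (miR-941 bases 18 to 23). Of the tested genes with an annotated 3′ UTR, 88.1% have one at least as long there. In BAG3 it spans 7 bases (miR-941 bases 12 to 18), and 63.1% of those genes have one at least as long. This search for the longest pairing was added after the values had been seen. A match or its absence describes only the letters, and pairing in the cells was not tested.
BAG1: cttggaatacaagatggttGCCGGGTca
HSPB8: aaaatgttGCACATtctatagt
BAG3: gctgtggtTGTGCACtgtctttt

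Sequenced depth was 6079420 to 7651046 counts a library, and 3 counts, taken here as the floor, came to 0.392 to 0.493 counts per 1000000 (CPM). Of the 15607 genes tested with edgeR's quasi-likelihood test, 2027 (13.0%) passed a Benjamini-Hochberg adjusted p of 0.05. Of these, 1061 (6.80%) rose and 966 (6.19%) fell in the mimic libraries, and these genes are referred to as called. Changes were mostly small, with a median size of 0.12 on the log2 scale, and among the called genes 13 fell and 23 rose by at least 2-fold. The mimic and mock libraries did not overlap for 28.3% of the tested genes, and for 13.9% all mimic libraries lay below all mock libraries. Markers of the 293T line had counts for 8 of 9 genes, with NEFL at 0, and summed to 2128 to 2217 CPM in the mimic and 2000 to 2091 CPM in the mock libraries. VIM (means of 1038 CPM in the mimic and 982 CPM in the mock group) and KRT8 (580 and 588 CPM) made up most of that sum. PAX2 was at 8.53 and 6.57 CPM. Among these markers NEFM and KRT18 rose as called genes, and 0 fell. Blood markers summed to at most 0.820 CPM, endothelial markers to at most 5.41 CPM and fibroblast markers to at most 43.3 CPM, with PTPRC, HBB and PECAM1 at 0. COL1A1 supplied most of the fibroblast sum (means of 38.1 CPM in the mimic and 36.3 CPM in the mock group).

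HSPB8, BAG3 and BAG2 were lower in the mimic group, and the other members with enough counts were not among the called genes. Thus 3 of 9 tested members (33.3%) were called and all 3 fell, beside 13.0% of all genes, a comparison that carries no weight because the members were chosen with this contrast known. The number that rose was 0 in edgeR, also at an unadjusted p of 0.05, and in DESeq2. The median log2 fold change of the 9 members was -0.01, against 0.00 over all tested genes. In bulk RNA a lower count can mean less RNA per cell or fewer cells that make it, and these cannot be told apart.

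HSPB8, the small heat shock protein that partners BAG3, had 16.2, 19.0 and 16.7 CPM in the 3 mimic libraries and 40.7, 38.0 and 40.7 CPM in the mock libraries. The highest mimic library lay at 19.0 CPM, far under the lowest mock library, and each group kept within a few CPM of its mean. The counts behind these values were 123, 136 and 106 in the mimic and 300, 273 and 248 in the mock libraries. Mean levels were 17.3 ± 1.49 CPM (SD, n = 3) in the mimic and 39.8 ± 1.57 CPM (SD, n = 3) in the mock group. The fitted log2 fold change was -1.20 ± 0.10 (SE), with a 95% interval from -1.39 to -1.01, a level 0.435 times that of the mock group. Only 6 of the 15607 tested genes had a lower log2 fold change, and HSPB8 stood at rank 7 from the bottom. The gene is at chr12:119178642-119221131 on the plus strand (GRCh38), and no other gene with counts here shares its exons.

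HSPB1 (HSP27), the most abundant small heat shock protein of these cells, stabilises actin and holds unfolded clients, and is phosphorylated under stress. Its levels were 67.3, 64.8 and 71.8 CPM in the mimic and 73.7, 59.1 and 62.8 CPM in the mock libraries. The mock libraries reached both above and below the mimic libraries, so the groups overlapped. The log2 fold change was 0.06 ± 0.07 (SE), with a 95% interval of -0.09 to 0.20, and HSPB1 was not called. Without mock library 2 the value was -0.01, so its direction is not fixed. A pair of HSPB1 pseudogenes was counted as well, with 1.55% of the gene's own counts.

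HSPB11, also named IFT25, is grouped with the small heat shock proteins by name and works as a subunit of the intraflagellar transport B complex, which carries cargo into cilia. It had 40.6, 37.0 and 45.2 CPM in the mimic and 38.2, 37.3 and 41.8 CPM in the mock libraries. The groups overlapped, and the log2 fold change was 0.07 ± 0.08 (SE), with a 95% interval of -0.10 to 0.23. Without mimic library 3 the value was -0.01, so the direction of HSPB11 is not fixed either.

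HSPB6 (HSP20), a small heat shock protein of smooth and heart muscle, was low, at 1.85, 2.10 and 2.20 CPM in the mimic and 1.09, 2.09 and 1.64 CPM in the mock libraries. These values rest on 8 to 15 counts a library, the groups overlapped, and the log2 fold change of 0.35 ± 0.34 (SE) has a 95% interval from -0.34 to 1.04. A change of that size in either direction was not detectable at this depth.

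CRYAB (alpha B-crystallin), the small heat shock protein of lens and muscle, had 3, 6 and 3 counts in the mimic and 4, 2 and 0 in the mock libraries. At 0.396, 0.838 and 0.472 CPM against 0.543, 0.278 and 0 CPM, most values lie near the 3-count floor, and a count of 0 in mock library 3 allows up to 0.493 CPM. Even these counts are uncertain, because CRYAB shares exons with HSPB2-C11orf52 on the opposite strand, which had 107 counts in all against 18 for CRYAB, and use of strand in counting is not stated. The other small heat shock protein genes fixed for comparison (CRYAA, HSPB2, HSPB3, HSPB7, HSPB9 and ODF1, most of them muscle, lens or testis genes) failed the filter, and HSPB9 and ODF1 had no counts. Muscle markers had counts for 8 of 9 genes and summed to 89.5 to 108 CPM in the mimic and 93.0 to 109 CPM in the mock libraries. TTN made up most of that sum (means of 86.8 CPM in the mimic and 90.8 CPM in the mock group), followed by MYH3 (10.3 and 8.91 CPM). DES was at 1.66 and 1.64 CPM, ACTA1, MYH7, MYOD1, CKM and TNNT2 were lower still, and MYOG was at 0.

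**Figure D1:**
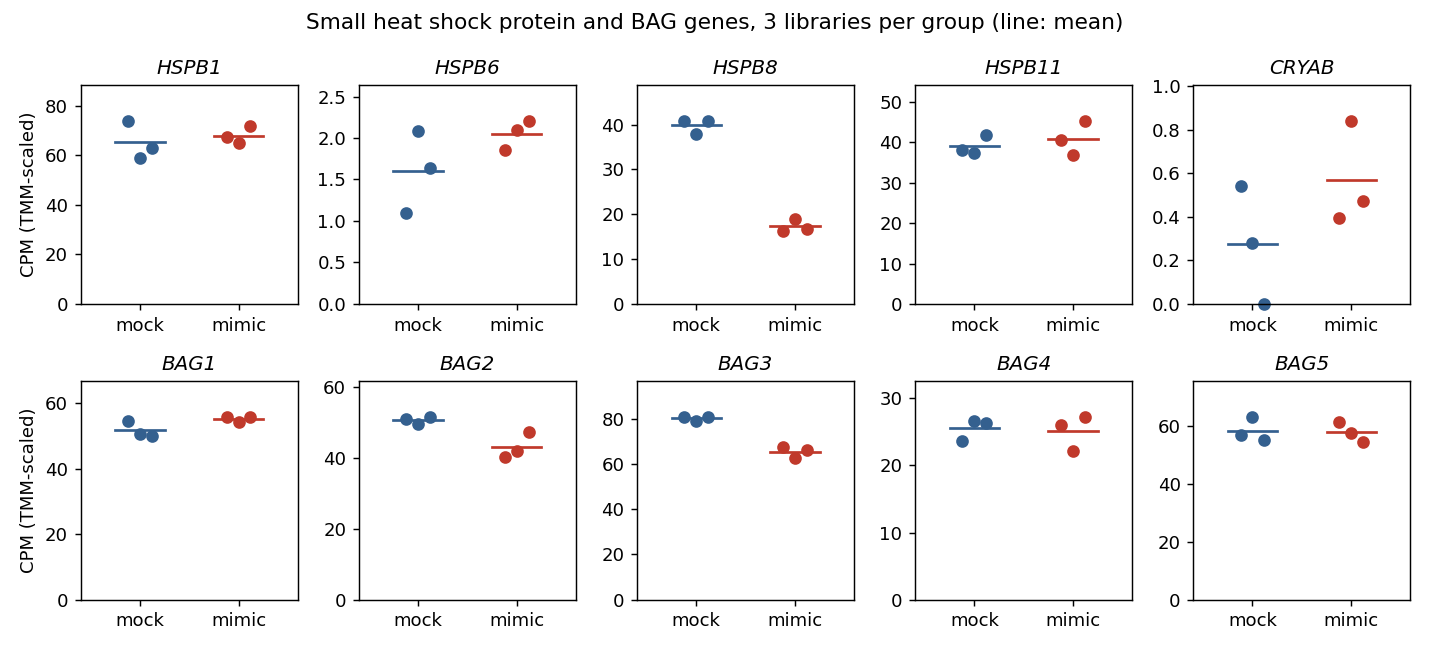
Level of each member in every library, in TMM-scaled CPM (vertical axes start at 0 and differ between panels), with mock libraries in blue and mimic libraries in red. Points are single libraries and lines are means of 3. HSPB8 lies at 16.2 to 19.0 CPM in the mimic and 38.0 to 40.7 CPM in the mock libraries, and BAG3 and BAG2 also do not overlap.

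BAG3, the BAG protein that is induced by stress and that carries HSPB8 and HSP70 together, had 67.7, 62.6 and 66.1 CPM in the mimic and 80.8, 79.2 and 80.7 CPM in the mock libraries. All mimic libraries lay below all mock libraries, and the mock libraries were the tighter group. The means were 65.4 ± 2.60 CPM and 80.2 ± 0.869 CPM (SD, n = 3 each), a change of -18.4%. The log2 fold change was -0.29 ± 0.06 (SE), with a 95% interval of -0.42 to -0.17. The gene is at chr10:119651370-119677819 on the plus strand.

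BAG2, an inhibitor of the CHIP ubiquitin ligase, had 40.4, 42.0 and 47.4 CPM in the mimic and 51.1, 49.6 and 51.6 CPM in the mock libraries. The groups did not overlap, with mimic library 3 the closest to the mock libraries. The log2 fold change was -0.24 ± 0.08 (SE), a change of -14.8%, with a 95% interval of -0.39 to -0.08. BAG2 was no longer called in DESeq2 (-0.24), nor without mimic library 1 (-0.19), mimic library 2 (-0.22), mock library 1 (-0.23) or mock library 3 (-0.23). Of its exon bases, 42.7% overlap RAB23 on the opposite strand, whose counts came to 109% of those of BAG2, so the reads of this pair may not be told apart. For RAB23 the fitted change was -0.06 ± 0.07 (SE) on the log2 scale (edgeR adjusted p = 0.64). The BAG2 gene is at chr6:57172326-57189833 on the plus strand.

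The remaining BAG genes were not called. BAG1, which joins HSP70 to the proteasome through a ubiquitin-like domain, had 55.7, 54.1 and 55.7 CPM in the mimic and 54.5, 50.5 and 50 CPM in the mock libraries, with a log2 fold change of 0.09 ± 0.07 (SE; 95% interval -0.05 to 0.23). BAG4, known as a silencer of death receptors, had 26.0, 22.1 and 27.2 CPM against 23.7, 26.7 and 26.4 CPM in the mock libraries, with a log2 fold change of -0.03 ± 0.10 (SE; 95% interval -0.23 to 0.17). BAG5, which has several BAG domains and inhibits the ligase parkin, had 61.5, 57.8 and 54.6 CPM against 57.1, 63.1 and 55.2 CPM, with a log2 fold change of -0.01 ± 0.07 (SE; 95% interval -0.15 to 0.13). In each of these 3 genes at least 1 mimic library lay within the range of the mock libraries. The sign changed for BAG4 without mimic library 2 (0.05) and for BAG5 without mimic library 3 (0.02). Small overlaps with genes on the opposite strand touch BAG4 (4.12% of exon bases, LSM1) and BAG5 (1.37%, KLC1).

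**Figure D2:**
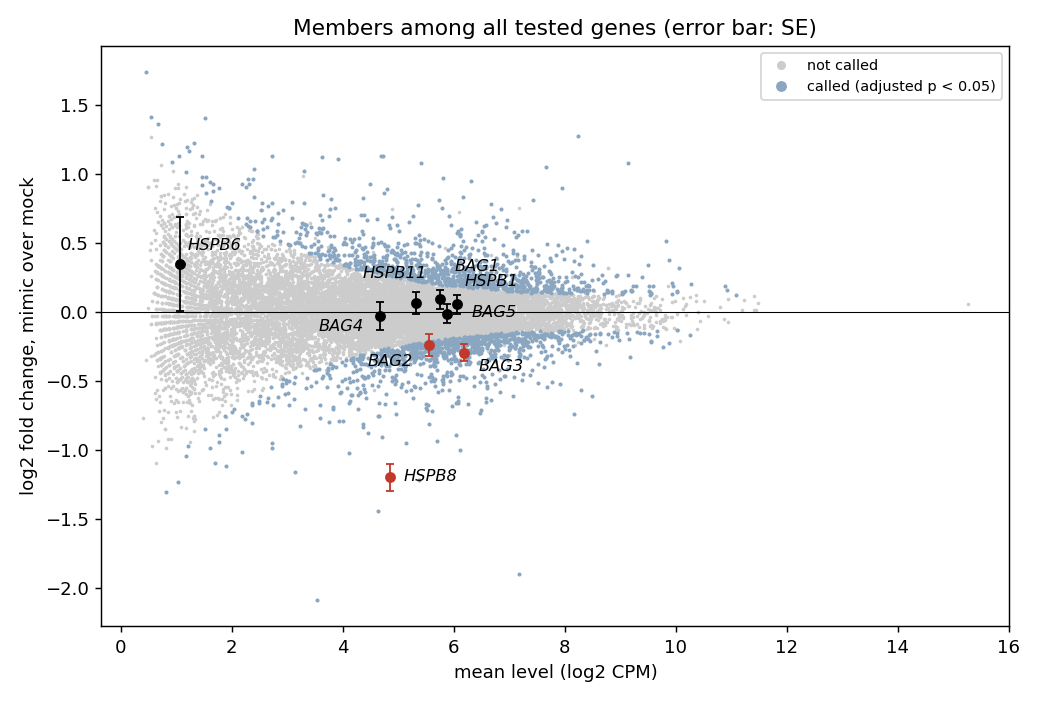
Log2 fold change (mimic over mock) of every tested gene against its mean level in log2 CPM, with the 9 tested members named. HSPB8 stands apart at -1.20, and BAG3 and BAG2 lie at -0.29 and -0.24. HSPB6, with few counts, lies at 0.35, percentile 93.9 of all tested genes. The other members lie between -0.03 and 0.09, near the bulk of the genes.

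Levels can be set side by side only per length, and here CPM was divided by the union of annotated exons in kilobases. In the mock group the order was HSPB1 (39.9 CPM per kb), BAG3 (29.2), HSPB8 (13.9), HSPB11 (12.1), BAG5 (11.1), BAG2 (7.64), BAG1 (7.30), BAG4 (5.33), HSPB6 (0.932) and CRYAB (0.0902). Between neighbours in that order, the mock libraries overlapped for HSPB11 with BAG5 and for BAG2 with BAG1, while the other neighbours did not overlap. In the mimic group HSPB8 moved from the third to the seventh place, at 6.05 ± 0.520 CPM per kb (SD, n = 3) against 13.9 ± 0.548 in the mock group. Its mimic libraries overlapped those of BAG2, in the sixth place. The lowest of them (5.67) barely cleared the highest mimic library of BAG4 (5.66), so the exact place is not resolved. HSPB1 and BAG3 held the first and the second place in both groups. This scale understates a gene whose union of annotated exons is longer than the transcripts in use.

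**Figure D3:**
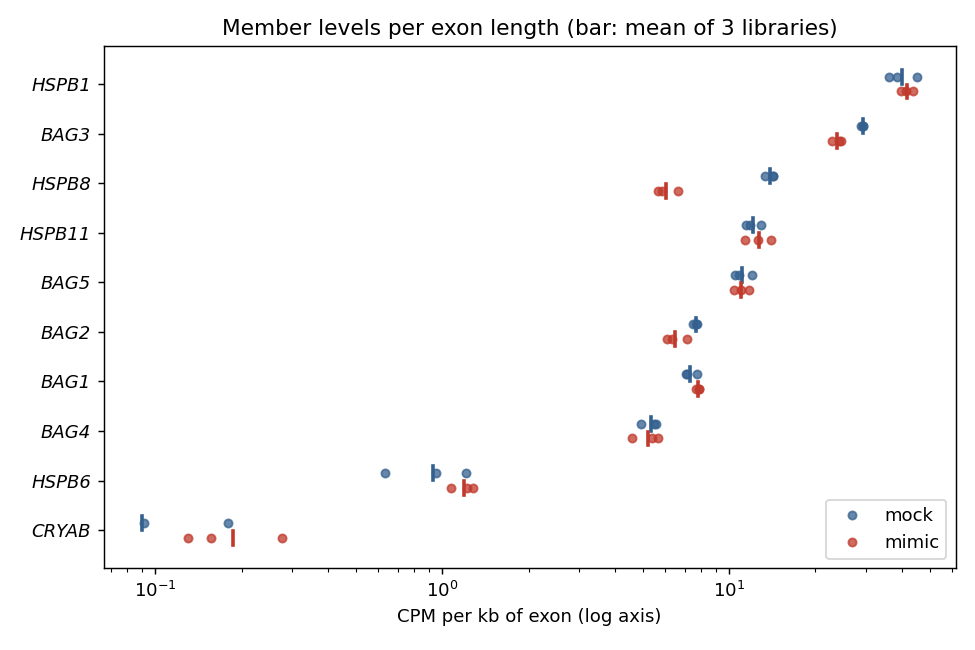
Level of each member per kilobase of annotated exon, on a log axis, for mock (blue) and mimic (red) libraries, ordered by the mock mean. HSPB8 moves from 13.9 to 6.05 CPM per kb, and mock library 3 of CRYAB, at 0, cannot be drawn on this axis.

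The balance between partners can be read within each library. HSPB8 per BAG3, both in CPM per kb, was 0.230, 0.292 and 0.242 in the mimic and 0.483, 0.460 and 0.484 in the mock libraries. HSPB8 made up 11.8%, 13.9% and 11.4% of the summed level of HSPB1, HSPB6, HSPB8 and CRYAB in the mimic libraries, and 23.7%, 26.2% and 26.5% in the mock libraries. The groups did not overlap in either measure. Both measures restate the counts by which the members were chosen, so this separation is no further result. HSPB1 supplied most of the rest of the summed level in every library. BAG3 made up 44.3%, 43.6% and 43.7% of the summed BAG1 to BAG5 level in the mimic libraries and 48.6%, 47.3% and 48.8% in the mock libraries. BAG3 was thus the leading BAG gene per length in all 6 libraries.

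Promoters of the members were read because stress induction of several of them runs through heat shock elements. These are arrays of GAA and its complement TTC. RefSeq promoters, from 250 bases before to 50 after the start, were at hand for 8 of the 10 members, CRYAB and BAG4 having none in the table. They were searched for the paired triplets GAANNTTC and TTCNNGAA, each of which reads the same on both strands and may share a triplet with the other. At least 1 pair was in the promoters of HSPB1, HSPB6, HSPB8 and BAG2, and none in those of HSPB11, BAG1, BAG3 and BAG5. Either pair was in 4737 of 35116 promoters (13.5%), and in 7 of 22 promoters of the heat shock response genes described further on. No pair was found for DNAJB1, HSPH1 or HSP90AA1 of that list. Lack of a pair in this window thus does not show that a gene has no heat shock element. HSPB8 had 2 pairs of the first kind, and HSPB6 had 1 of each kind. The windows below show these pairs in capitals, along each gene's strand (GRCh38.p14). The first HSPB8 pair is at chr12:119178843-119178850 and the second at chr12:119178935-119178942, both plus strand. The HSPB1 pair is at chr7:76302491-76302498 (plus strand), the first HSPB6 pair at chr19:35757232-35757239 and the second at chr19:35757218-35757225 (minus strand), and the BAG2 pair at chr6:57172202-57172209 (plus strand). The HSPA8 window, at chr11:123062354-123062366 on the minus strand, is given for comparison because it holds 3 triplets in a row, an arrangement found in 172 promoters (0.49%) and in none of the members.
HSPB8 first: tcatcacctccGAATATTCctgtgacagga
HSPB8 second: aggagccagaaGAAGTTTCtaggcgcgcgt
HSPB1: ccttaacgagaGAAGGTTCcagatgagggc
HSPB6 first: ttagtttcctcTTCTGGAAattggggaatc
HSPB6 second: tggaaattgggGAATCTTCatgtcaccttc
BAG2: tcgaccgatagGAACCTTCgcgtgggggga
HSPA8: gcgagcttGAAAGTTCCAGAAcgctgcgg

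Among the heat shock response genes, HSF1 and its known targets, 3 of 23 tested genes rose and 1 fell in the edgeR fit, with a median log2 fold change of 0.04. The share called, 17.4%, is near the 13.0% of all tested genes. HSPA8, the constitutive HSP70 that BAG proteins bind, rose from 1768 ± 11.4 to 2016 ± 117 CPM (SD, n = 3 each), a log2 fold change of 0.19 ± 0.04 (SE; edgeR adjusted p = 0.00127). HSPD1, the mitochondrial chaperonin, rose by 0.27 ± 0.04 (SE; edgeR adjusted p = 4.48e-06) on the log2 scale, with 12 pseudogenes holding 14% as many counts. AHSA1, an activator of HSP90, rose by 0.17 ± 0.05 (SE; edgeR adjusted p = 0.0241), and was not called in DESeq2 (0.16) or without mimic library 1 (0.15), mock library 2 (0.17) or mock library 3 (0.11). FKBP4, a co-chaperone of HSP90 in steroid receptor complexes, fell from 373 ± 7.62 to 251 ± 7.38 CPM (SD, n = 3 each), a log2 fold change of -0.57 ± 0.05 (SE; edgeR adjusted p = 1.1e-15). HSF1 itself was at 54.6 CPM in the mimic and 52.9 CPM in the mock group (0.05 ± 0.07, SE; edgeR adjusted p = 0.735). DNAJB1, an HSP40 and a strongly heat-induced gene, had a log2 fold change of 0.08 ± 0.05 (SE; edgeR adjusted p = 0.382). The stress-induced HSP70 genes HSPA1A and HSPA1B had 1 count each over the 6 libraries, and give no reading of HSP70 induction here. BAG6, a neighbour of theirs on chromosome 6 and the BAG gene left outside the 10, had 8 counts over all libraries. Whether the low counts of these 3 genes reflect their expression or how reads of this stretch of chromosome 6 were aligned and counted was not tested, so they are not read as levels.

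Of the HSP70 partners, a list of HSP70 chaperones, other nucleotide exchange factors and CHIP, 6 of 15 tested genes rose and 1 fell, with a median log2 fold change of 0.14. The share called was 46.7%, beside 13.0% of all tested genes. The difference was not tested and carries no weight, because this list too was chosen with earlier results of these data known. HSPA8 is among the genes that rose. HSPA5 (BiP), the HSP70 of the endoplasmic reticulum, rose from 613 ± 16.4 to 730 ± 45.2 CPM (SD, n = 3 each), a log2 fold change of 0.25 ± 0.05 (SE; edgeR adjusted p = 2.92e-05). ST13, which slows nucleotide release from HSP70, rose by 0.24 ± 0.05 (SE; edgeR adjusted p = 0.000241), with 12 pseudogenes holding 26.2% as many counts. GRPEL2, an exchange factor of mitochondrial HSP70, rose from 28.0 ± 3.37 to 37.0 ± 4.27 CPM (SD, n = 3 each), a log2 fold change of 0.40 ± 0.09 (SE; edgeR adjusted p = 0.00156). The other 2 that rose, named after their values were seen, were HYOU1 (0.17 ± 0.05, SE; edgeR adjusted p = 0.00921) and the mitochondrial HSP70 gene HSPA9 (0.14 ± 0.05, SE; edgeR adjusted p = 0.0302). HYOU1 was not called without mimic library 1 (0.14), mock library 2 (0.15) or mock library 3 (0.16). HSPA9 was not called in DESeq2 (0.14), with a replicate block (0.14), or without mimic library 1 (0.15), mimic library 3 (0.10), mock library 1 (0.14) or mock library 3 (0.12). HSPBP1, an exchange factor of cytosolic HSP70 as the BAG proteins are, was the gene that fell, from 68.2 ± 1.65 to 56.3 ± 3.48 CPM (SD, n = 3 each), and it too was named after its value was seen (log2 fold change -0.27 ± 0.07, SE; edgeR adjusted p = 0.00274). STUB1 was at 158 CPM in the mimic and 155 CPM in the mock group (0.03 ± 0.05, SE; edgeR adjusted p = 0.744), and shares 42.4% of its exon bases with JMJD8 on the opposite strand.

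Chaperone-assisted autophagy, the route served by BAG3 and HSPB8, was followed through 25 tested genes, of which 2 rose and 3 fell, with a median log2 fold change of -0.00. The share called, 20.0%, can be set beside 13.0% of all genes, without a test and with the same limit from the list's choice. SYNPO, a relative of the BAG3 partner SYNPO2, fell from 10.1 ± 1.12 to 6.59 ± 0.754 CPM (SD, n = 3 each), with a log2 fold change of -0.63 ± 0.17 (SE; edgeR adjusted p = 0.00516), and was not called without mock library 1 (-0.55). DESeq2 gave SYNPO no adjusted p. DNAJB2, an HSP40 that hands clients to HSP70 for degradation, fell from 52.7 to 43.5 CPM, with a log2 fold change of -0.28 ± 0.07 (SE; edgeR adjusted p = 0.00623), and was not called without mock library 1 (-0.25). VPS18, a subunit of the lysosomal tethering complexes and named after its value was seen, fell by 0.23 on the log2 scale (SE 0.08; edgeR adjusted p = 0.032). Its call was lost in DESeq2 and in 5 of the 6 fits without 1 library, at log2 fold changes of -0.23 to -0.22, and held without mimic library 3. YWHAG, an adaptor that binds phosphorylated BAG3, rose by 0.19 ± 0.05 (SE; edgeR adjusted p = 0.005), and was not called without mimic library 1 (0.15) or mock library 2 (0.15). HSPA8, described above, is the other that rose. SQSTM1 (p62), the receptor that carries ubiquitinated clients to autophagosomes, was at 209 ± 9.48 CPM in the mimic and 226 ± 8.53 CPM in the mock group (SD, n = 3 each). Its log2 fold change of -0.11 ± 0.05 (SE) did not pass (edgeR adjusted p = 0.119). SQSTM1 shares 20.7% of its exon bases with MRNIP on the opposite strand, whose counts came to 67.6% of its own.

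Across the 89 tested genes of these lists with an annotated 3′ UTR, 3 held the miR-941 seed complement in the longest one. Over all tested genes with an annotated 3′ UTR, the share was 4.87%. DNAJB2 was the one of the 3 that was called, beside 13.0% called of all tested genes. Its 3′ UTR of 1913 bases has 3 copies, all in exon 9 of 9 on the plus strand (GRCh38). They are at chr2:219285672-219285678, chr2:219286005-219286011 and chr2:219286133-219286139, and are printed because no other gene of the chaperone lists had more than 1. The capitals mark the seed complement. The other 2 were HSPA4L and IFT88, neither called. Pairing of miR-941 with any of these sites in the cells was not tested.
DNAJB2 first: cttctggggaggctaGCCGGGTgggg
DNAJB2 second: tgttctgagctggatGCCGGGTtcca
DNAJB2 last: gggtggcgggtggggGCCGGGTggga

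The intraflagellar transport B complex, to which HSPB11 belongs, had 1 called gene of 16 (6.25%, beside 13.0% of all tested genes), with a median log2 fold change of 0.03. IFT27, the small GTPase that pairs directly with HSPB11, went from 39.6 ± 1.81 to 46.0 ± 2.91 CPM (SD, n = 3 each), a log2 fold change of 0.22 ± 0.08 (SE; edgeR adjusted p = 0.0485). That value lies next to the threshold, and the call was lost in DESeq2 (0.22), without TMM scaling (0.21), without the filter on low counts (0.21), with a replicate block (0.22) and in 5 of the 6 fits without 1 library (0.19 to 0.25).

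Signalling partners of the members, the kinases of HSPB1 and proteins that BAG proteins bind or restrain, had 1 called gene of 16 tested (6.25%, beside 13.0% of all tested genes), and it fell. MAPK14 (p38 alpha), which acts upstream of HSPB1 phosphorylation, fell from 97.3 ± 5.50 to 83.0 ± 0.589 CPM (SD, n = 3 each), a log2 fold change of -0.23 ± 0.06 (SE; edgeR adjusted p = 0.00483), and was not called without mock library 2 (-0.18). MAPKAPK2, the kinase that phosphorylates HSPB1, had a log2 fold change of -0.17 ± 0.07 (SE; edgeR adjusted p = 0.0903), and was called without mock library 2 (-0.23).

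**Figure D4:**
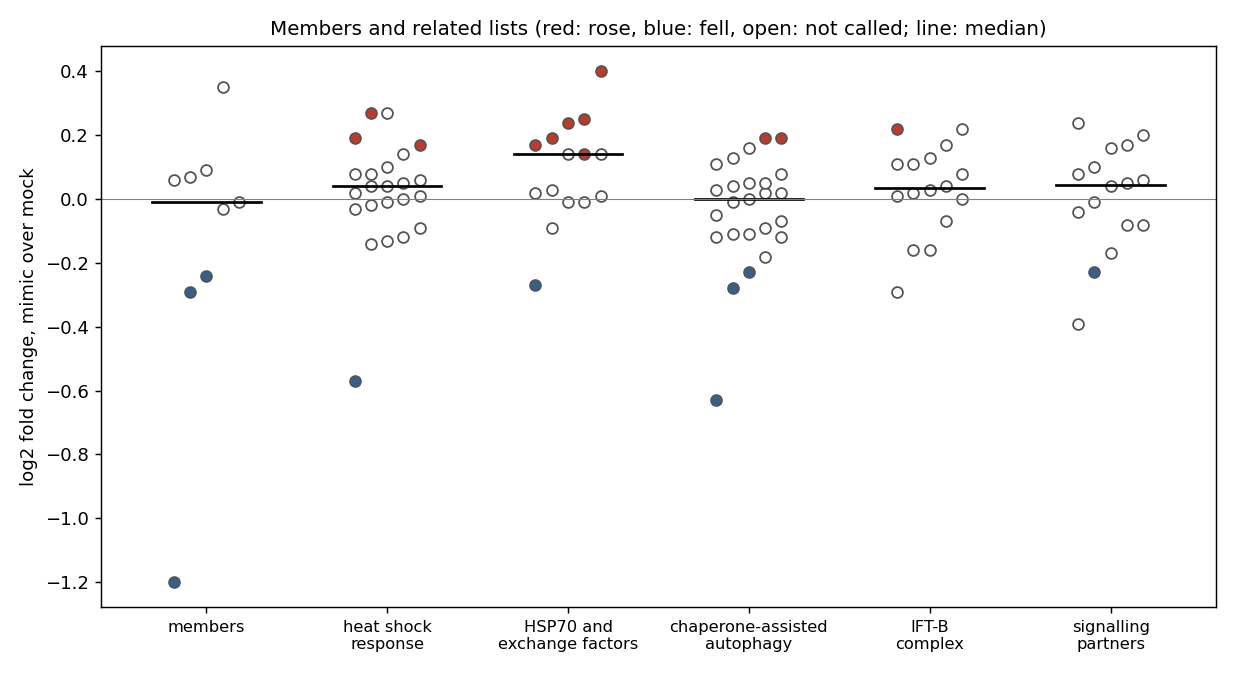
Log2 fold change (mimic over mock) of each tested gene in the members and the 5 partner lists, with called genes filled and the others open. HSPB8 at -1.20 is the lowest value in any of these lists, followed by SYNPO at -0.63 and FKBP4 at -0.57.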

How the data were processed

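Raw counts per Ensembl gene, 1 file for each library, are as deposited by the authors. STAR, edgeR and the build hg19 are named in the submitters' processing notes, without versions or roles. Which program counted the reads, with what annotation and whether by strand, is stated in none of the sources used here. A gene missing from a file was taken as 0. Symbols came from the gene name table and GENCODE 29, and 1377 of the 26613 IDs had none in the latter. Coordinates, exon lengths and transcripts are of GRCh38, not of the build used for counting.

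Groups were compared with edgeR 4.0.16 in R 4.3.3 (filterByExpr by group, TMM, robust quasi-likelihood fit on 3 against 3 libraries, group as the only term), adjusted over all 15607 tested genes, which held 99.7% of the counts. TMM factors were 0.994 to 1.01, and CPM uses them. The procedure was tested on simulated data. Replicates differed by 1.27 to 2.38 times their sampling variance within groups and by 3.58 to 4.80 times between groups, and none was a duplicate. The highest values within groups, 2.04 and 2.38, were those of mimic library 3 against mimic libraries 1 and 2. Alternatives were DESeq2 1.42.0, no TMM scaling, no filter, a mean of at least 5 CPM, a replicate block and leaving out each library. Named genes are all members, up to 4 called genes of smallest p in each list, and HSF1, STUB1, HSPA8, SQSTM1, BAG6, IFT27, MAPKAPK2, HSPA1A, HSPA1B and DNAJB1. Members and lists were chosen with earlier results of these data known, so the shares called in them are a description. Protein sequences were not used here, and the window of 1 further match is not reported here.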

Additional observations from a re-analysis of the deposited data

How the results depend on the processing

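Counting error and 3 libraries a group limit what can be read, most of all for HSPB6 and CRYAB. DESeq2 called 1015 of all genes (516 rose, 499 fell; 3934 had no adjusted p, among them HSPB6 and SYNPO), against 2027 in edgeR, and leaving out 1 library gave 1302 to 2061, the lowest without mock library 1 (689 rose, 613 fell). Without mock library 3, 631 fell. The highest number called, 2061, came without mimic library 3. Of the members, DESeq2 called 2, and leaving out 1 library gave 2 to 3, BAG2 being the one lost. The log2 fold change of HSPB8 was -1.27 to -1.15 over the alternatives and that of BAG3 -0.32 to -0.26, as a description. Called genes of the chaperone-assisted autophagy list were 3 in DESeq2 and 2 to 5 on leaving out 1 library. The intraflagellar transport B list had 0 in DESeq2, without TMM scaling, without the filter and with the replicate block, and 0 to 1 on leaving out 1 library. The cause of these differences was not tested. Among the named genes, no called log2 fold change reversed. Replicate numbers of the groups gave no sign of pairing (correlation of deviations for equal numbers -0.05 to 0.04). These deviations hold much counting error, so the check cannot exclude a pairing. With the replicate block 1819 genes were called (965 rose, 854 fell) and 3 members. Among the genes named, the block ended the calls of HSPA9 (0.14, edgeR adjusted p = 0.0507) and IFT27 (0.22, edgeR adjusted p = 0.065) and no other.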
